A study of Mus musculus with 72 samples.

Results

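Described here are 41 genes of the cell cycle and of DNA replication, chosen by symbol, all of which were found among the 16835 genes of the deposited matrix. They run from the loading of the replicative helicase in G1 to the separation of chromosomes in mitosis, and all 41 stood above the matrix's lowest value in at least 3 libraries of every tissue and day, so all were tested. The libraries came from BALB/c mice bearing tumors of CT26, a mouse colon carcinoma line grown in that strain, and every mouse in every arm carried such a tumor. The 6 arms were labelled TS/PD1/CYTO, TS/CYTO, PD1/CYTO, CYTO, PD1 and Isotype, with 3 mice per arm, tissue and day. PD1, CYTO and TS stand here as the labels write them, since neither agents, doses and schedules nor the ages of the mice are given in the sources used here. Tumor, spleen and TDLN were taken at day 23, and TDLN also at day 16 from other mice. TDLN is the usual short form for tumor-draining lymph node and is not spelled out by the labels. Tumors had a volume of 180.8 to 2198 mm3, and the mice that gave spleens and nodes at day 23 had tumors of 29.18 to 2198 mm3.

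Dividing cells copy their DNA once and then split the copies. Origins are licensed by loading the MCM2-7 helicase, nucleotide synthesis supplies the building blocks, E2F factors and cyclin E open S phase, and cyclin B with CDK1 drives mitosis, which ends when the anaphase-promoting complex destroys cyclins. Cancer cell lines such as CT26 divide continuously, red cell precursors divide in the mouse spleen, and activated lymphocytes divide in lymph nodes. In whole tissue, more dividing cells and more of these RNAs per cell cannot be told apart.

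Values are log2(TPM + 1), where TPM is the usual unit of transcript abundance, scaled per library and already divided by transcript length, so that genes can be compared with each other. Depth per library is unknown, because TPM does not keep it. The listed genes summed to 821710 to 864650 TPM in tumors, 408820 to 596020 in spleens and 778070 to 829340 in day 23 nodes. The RNA integrity number ran from 4.5 to 7.8 in tumors, 6.0 to 9.0 in spleens and 4.5 to 7.9 in day 23 nodes. Of the 18 tumors, 4 were in batch 2 and labelled fresh-frozen, and 14 were in batch 3 and labelled RNAlater. Batch and preservation thus cannot be told apart in tumors. All spleens and nodes were labelled RNAlater. All nodes were in batch 2 and all spleens, alone, in batch 4, so that spleen and batch cannot be told apart. Defining markers fitted the tissue labels of spleens and day 23 nodes: the mean of 12 red cell precursor genes was 6.37 to 8.13 in spleens, and the mean of 5 lymph node genes was 4.82 to 6.24 in day 23 nodes. In tumors EPCAM, CDH1 and KRT7 were at the lowest value in all 18 libraries, while the keratin gene KRT18 lay between 2.28 and 3.81. One day 16 node, from PD1/CYTO mouse 22, correlated more closely with tumors (r = 0.975 across genes) than with other nodes (r = 0.806), and 2 others, PD1 mouse 16 and TS/PD1/CYTO mouse 34, had adipocyte marker means of 10.6 and 10.2. Exocrine pancreas markers, foreign to spleen, had means of 9.98, 9.86 and 9.77 in the spleens of TS/CYTO mouse 48, Isotype mouse 9 and PD1 mouse 29, against a median of 1.62 over all spleens. Day 23 nodes varied as well, with epithelial marker means of 0.42 to 6.15 and adipocyte marker means of 1.85 to 8.03. Day 16 results are given with and without the 3 day 16 nodes named above, of PD1/CYTO mouse 22, PD1 mouse 16 and TS/PD1/CYTO mouse 34.

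Promoters of cell cycle genes often carry short motifs: the CHR is bound by the DREAM and MuvB complexes, E2F sites by E2F factors and CCAAT boxes by NF-Y. RefSeq promoter windows (build GRCm38.p6, 250 bases before to 50 after the annotated start) were found for 34 of the 41. The letters TTTGAA, the cell cycle genes homology region or CHR, were searched on both strands and stood in 17 of the 34 windows (50%), against 14.1% of the windows of 9666 genes. The E2F spellings TTTCCCGC, TTTGGCGC and TTTCGCGC stood in 6 of 34 (17.6%), against 3.89%, and CCAAT in 27 of 34 (79.4%), against 41.9%. CHR and E2F letters were spread unevenly over the roles. Of 8 windows of origin licensing and helicase genes, 5 held an E2F spelling and 2 a CHR, whereas 4 of 5 windows of G2 and mitotic cyclins and kinases and 4 of 5 of the spindle checkpoint and anaphase-promoting complex held a CHR. None of the 4 nucleotide supply windows held either. Motifs can overlap each other, as the CCAAT pair read on opposite strands in UBE2C does, and a match describes letters, not binding. Shown are the 6 genes with the smallest p between spleen and TDLN that held any of these letters and had a RefSeq window, with the matches on either strand in capitals.

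HMGB3, a chromatin protein of blood progenitors, chrX:71555667-71555966 (plus strand), has 1 CHR and 3 CCAAT boxes; UBE2C, the ubiquitin-conjugating enzyme of the anaphase-promoting complex, chr2:164769679-164769978 (plus strand), has 1 CHR and 6 CCAAT boxes. CCNB2, a mitotic cyclin, chr9:70421505-70421804 (minus strand), has 2 CHR and 3 CCAAT boxes. CDK1, the mitotic kinase, chr10:69352863-69353162 (minus strand), has 2 CHR, 1 E2F spelling and 3 CCAAT boxes. CDC6, the loader of the MCM helicase, chr11:98907901-98908200 (plus strand), has 1 E2F spelling only. This RefSeq window lies inside the GENCODE gene, which starts at 98907801, so the letters before that start were not searched. The MCM7 windows counted above (minus strand) likewise lie inside its GENCODE gene, which ends at 138172422. AURKA, a spindle pole kinase, chr2:172370521-172370820 (minus strand), has 1 CHR and 2 CCAAT boxes.
HMGB3: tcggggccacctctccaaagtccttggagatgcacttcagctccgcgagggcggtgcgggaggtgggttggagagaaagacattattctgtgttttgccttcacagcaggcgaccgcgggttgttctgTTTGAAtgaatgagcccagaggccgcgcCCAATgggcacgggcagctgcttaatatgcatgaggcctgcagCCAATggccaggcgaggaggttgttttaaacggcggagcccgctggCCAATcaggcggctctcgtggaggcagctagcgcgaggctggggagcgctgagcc
UBE2C: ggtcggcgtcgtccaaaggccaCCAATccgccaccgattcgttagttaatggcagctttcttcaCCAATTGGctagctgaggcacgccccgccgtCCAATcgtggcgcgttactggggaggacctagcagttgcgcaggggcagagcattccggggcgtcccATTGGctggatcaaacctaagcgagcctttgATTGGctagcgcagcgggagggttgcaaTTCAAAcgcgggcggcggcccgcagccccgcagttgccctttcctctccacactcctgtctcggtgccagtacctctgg
CCNB2: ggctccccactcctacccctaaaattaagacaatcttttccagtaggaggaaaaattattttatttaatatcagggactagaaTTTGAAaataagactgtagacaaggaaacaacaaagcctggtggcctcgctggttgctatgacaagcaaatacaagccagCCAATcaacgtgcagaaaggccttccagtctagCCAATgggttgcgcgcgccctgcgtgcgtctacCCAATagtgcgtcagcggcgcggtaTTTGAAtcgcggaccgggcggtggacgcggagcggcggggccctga
CDK1: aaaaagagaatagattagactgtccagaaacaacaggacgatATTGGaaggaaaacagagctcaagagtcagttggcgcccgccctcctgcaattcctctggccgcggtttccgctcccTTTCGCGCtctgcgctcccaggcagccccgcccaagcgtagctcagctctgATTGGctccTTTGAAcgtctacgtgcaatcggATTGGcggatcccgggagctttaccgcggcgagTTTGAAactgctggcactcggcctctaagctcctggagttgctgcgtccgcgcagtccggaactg
CDC6: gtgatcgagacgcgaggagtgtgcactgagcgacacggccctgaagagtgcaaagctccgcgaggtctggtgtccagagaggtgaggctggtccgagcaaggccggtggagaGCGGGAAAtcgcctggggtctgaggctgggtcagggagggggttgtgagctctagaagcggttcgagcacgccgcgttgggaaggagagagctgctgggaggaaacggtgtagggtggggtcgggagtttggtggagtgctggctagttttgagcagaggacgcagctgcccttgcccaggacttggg
AURKA: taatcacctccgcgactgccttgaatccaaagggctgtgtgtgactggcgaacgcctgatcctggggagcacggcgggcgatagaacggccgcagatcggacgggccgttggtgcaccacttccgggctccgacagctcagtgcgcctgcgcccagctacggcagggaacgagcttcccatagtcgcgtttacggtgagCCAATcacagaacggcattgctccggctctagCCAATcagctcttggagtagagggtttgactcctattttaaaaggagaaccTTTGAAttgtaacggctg

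The 41 genes were expressed in all 3 tissues, at summed levels of 2359 to 4045 TPM in tumors (median 3391), 1710 to 4960 TPM in spleens (median 3086) and 788.5 to 1623 TPM in day 23 nodes (median 1261). No day 23 node reached the lowest tumor or the lowest spleen in this sum. Over all 41, PCNA, the sliding clamp of DNA polymerase, had the highest mean level in tumors, spleens and day 23 nodes, at 8.55 ± 0.19, 8.19 ± 0.37 and 7.17 ± 0.17 (SD, n = 18 each). The lowest mean in tumors was that of CDC6, at 3.27 ± 0.46. KNTC1, a kinetochore protein of the spindle checkpoint, was the lowest in spleens at 2.92 ± 0.44, and CENPW, a centromere protein, was the lowest in day 23 nodes at 1.85 ± 0.36 (SD, n = 18 each). Day 16 nodes spread more widely, with sums of 343.7 to 4412 TPM, since they include the 3 day 16 nodes named above.

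**Figure D1:**
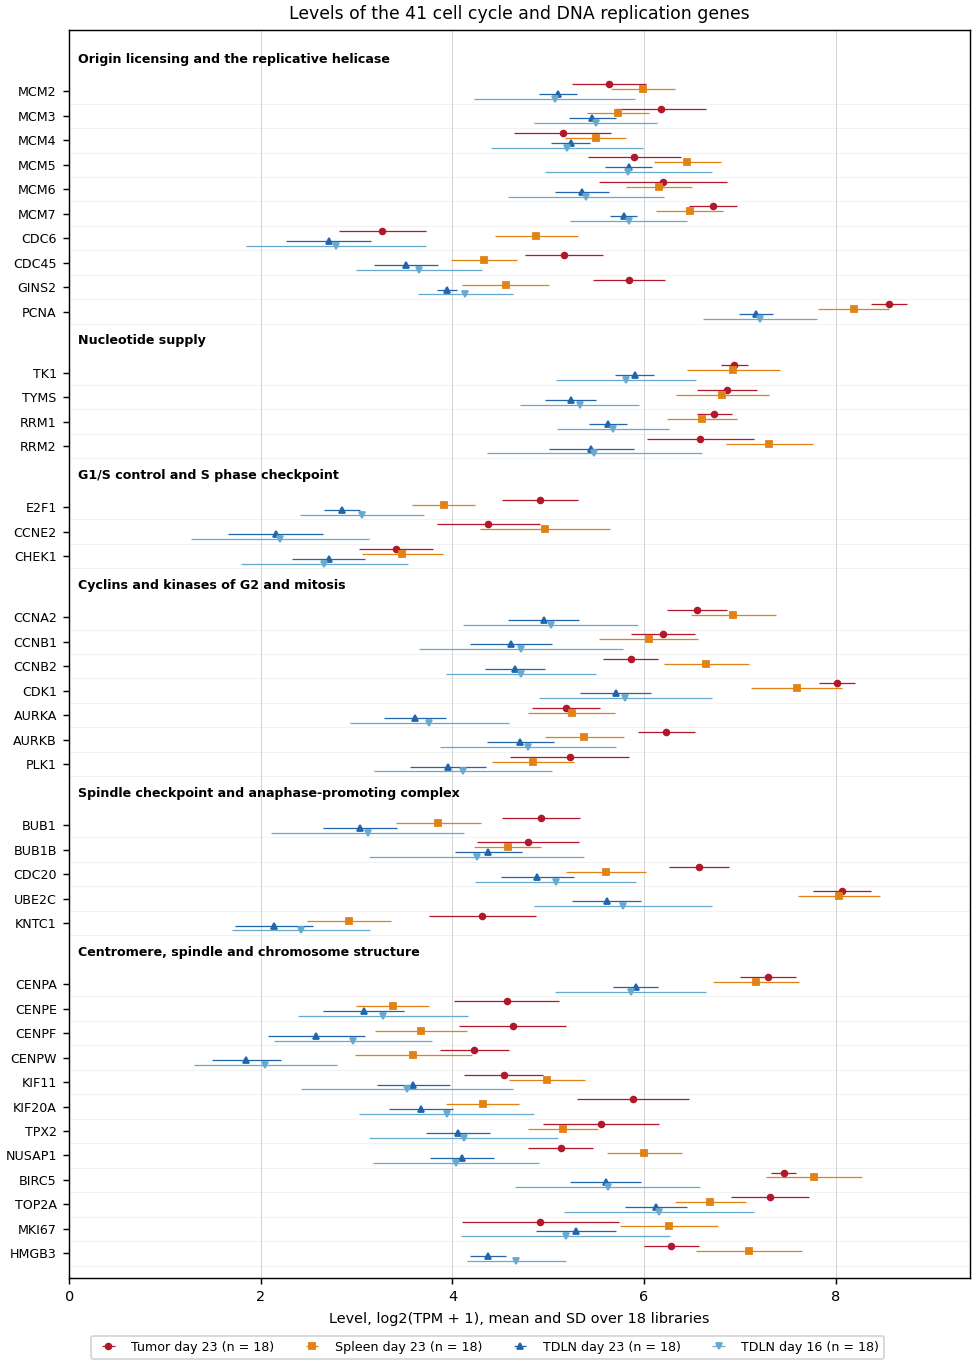
Mean level of each of the 41 genes, as log2(TPM + 1) with SD over 18 libraries, in tumors, spleens and nodes at day 23 and in nodes at day 16, grouped by role. Tumor and spleen means lie to the right of the day 23 node mean for nearly every gene; MKI67 and MCM4 have tumor means left of it.

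Levels moved together within a tissue. Each gene was correlated with the mean of the other 40 over 18 libraries, as a description in which all points share library composition. The median r was 0.838 in tumors, 0.942 in spleens and 0.947 in day 23 nodes, and r was above 0.8 for 24, 38 and 38 of the 41. The lowest values were in tumors: CENPW had r = -0.702, CENPA, the centromeric histone, r = -0.300, KNTC1 r = -0.253 and GINS2, part of the active helicase, r = -0.128. TYMS, which makes thymidylate, had r = 0.189 there and CCNE2, a cyclin E that activates CDK2, r = 0.070. Batch moved with these values, as CENPW averaged 4.62 ± 0.38 in the 4 tumors of batch 2 and 4.12 ± 0.27 in the 14 of batch 3 (SD). Within batch 3 alone the median r was 0.760 and 20 of the 41 were above 0.8. CENPW and KNTC1 then had r = -0.416 and -0.346, whereas CENPA, GINS2, TYMS and CCNE2 had 0.296, 0.306, 0.655 and 0.472. In spleens the loosest were CENPE, CENPF and MKI67, with r = 0.639, 0.653 and 0.667, and the tightest was CCNA2, the S phase cyclin, with r = 0.989.

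Tumors against nodes at day 23 gave higher levels for 38 of the 41 genes and lower levels for 0 (limma, Benjamini-Hochberg adjusted p under 0.05 over all 12761 genes tested). Of all genes, 27.7% were higher and 57.9% were lower. The median difference of the 41 was 1.49 on the log2(TPM + 1) scale, against -0.43 for all genes, a scale on which the changes of low genes are understated. In 22 of the 41, every tumor lay above every node, against 10.8% of all genes. Within batch 2, in 4 tumors and 18 nodes, 32 of the 41 were higher and 2 lower with a median of 1.15, where 20.9% of all genes were higher and 62.3% lower (limma with arm as a term, chosen after seeing the data). All 4 tumors were fresh-frozen and all 18 nodes RNAlater, so that tissue and preservation cannot be told apart in this contrast. The 2 lower genes there were MKI67 (-1.26 ± 0.30) and MCM4 (-0.51 ± 0.19), and BUB1B, CDC6, MCM2, MCM3, MCM6 and PLK1 did not pass. The 8 largest differences in the fit of all libraries were those of UBE2C, CENPW, CDK1, KIF20A, CCNE2, KNTC1, E2F1 and CENPF.

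Among the replication genes, GINS2 had 5.23, 5.81 and 6.46 in tumors (lowest, median and highest of 18) and 3.75, 3.93 and 4.17 in nodes, so that the groups were fully apart (1.90 ± 0.11, SE, adjusted p = 5.5e-20, limma). CDC45, its partner in the helicase, differed by 1.65 ± 0.12. The MCM subunits differed less, from -0.09 ± 0.12 for MCM4 and 0.06 ± 0.12 for MCM5, neither of which passed, to 0.94 ± 0.09 for MCM7. MCM5 levels were 4.81, 6.08 and 6.44 in tumors and 5.31, 5.87 and 6.23 in nodes, which overlap. All 4 nucleotide supply genes were higher: TYMS by 1.63 ± 0.12, RRM2 and RRM1, the subunits of ribonucleotide reductase, by 1.14 ± 0.17 and 1.11 ± 0.09, and TK1, the salvage thymidine kinase, by 1.04 ± 0.10. PCNA was higher by 1.38 ± 0.09. E2F1, the transcription factor of S phase entry, had 3.70, 4.95 and 5.34 in tumors and 2.50, 2.86 and 3.19 in nodes, a difference of 2.06 ± 0.11 (SE, adjusted p = 8.4e-21, limma) with no overlap.

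All 7 cyclins and kinases of G2 and mitosis were also higher in tumors than in nodes, by 1.21 ± 0.12 for CCNB2 to 2.31 ± 0.12 for CDK1. CDK1 had 7.58, 8.06 and 8.27 in tumors and 4.89, 5.77 and 6.15 in nodes. UBE2C differed by 2.46 ± 0.13 and CDC20, the activator of the anaphase-promoting complex, by 1.69 ± 0.13. BUB1B, a spindle checkpoint kinase, differed least among the 38, by 0.41 ± 0.14 (SE, adjusted p = 0.0069, limma). KIF20A, a kinesin of cytokinesis, differed by 2.22 ± 0.15 and TOP2A, the enzyme that untangles sister chromatids, by 1.19 ± 0.12. MKI67, which encodes the proliferation marker Ki-67, went the other way without passing: 3.13, 4.97 and 5.95 in tumors, 4.32, 5.41 and 5.80 in nodes, a difference of -0.37 ± 0.19 (SE, adjusted p = 0.071, limma). Tumors of batch 2 averaged 4.01 ± 0.84 for MKI67 (SD, n = 4), against 5.17 ± 0.62 in tumors of batch 3 (SD, n = 14).

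Spleens against nodes gave 39 of 41 genes higher and 0 lower, where 9.1% of all genes were higher and 79.7% lower. The median difference was 1.02, against -0.92 for all genes. In 14 of the 41 every spleen lay above every node, against 3.28% of all genes. CENPE, a kinetochore motor, at 0.30 ± 0.15 and BUB1B at 0.20 ± 0.14 were the 2 that did not pass. With mouse as a replicate block, since spleen and node came from the same 18 mice, 40 passed, all higher.

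CCNE2 had the largest difference: 3.85, 4.95 and 6.28 in spleens, 1.13, 2.35 and 2.81 in nodes, or 2.81 ± 0.18 (SE, adjusted p = 1.3e-17, limma). HMGB3 had 5.89, 7.12 and 7.88 in spleens and 4.05, 4.38 and 4.66 in nodes, a difference of 2.73 ± 0.12. UBE2C differed by 2.42 ± 0.13, CDC6 by 2.17 ± 0.15, BIRC5, the survivin subunit of the chromosomal passenger complex, by 2.17 ± 0.12, CCNB2 by 2.00 ± 0.12, CCNA2 by 1.98 ± 0.13 and NUSAP1, a spindle microtubule protein, by 1.91 ± 0.13. In each of these 8 the lowest spleen was above the highest node. At the other end of the 39, MCM4 and MCM3 differed by 0.26 ± 0.12 and 0.27 ± 0.11. MKI67 had 5.53, 6.23 and 7.12 in spleens, and was higher than in nodes by 0.97 ± 0.19.

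**Figure D2:**
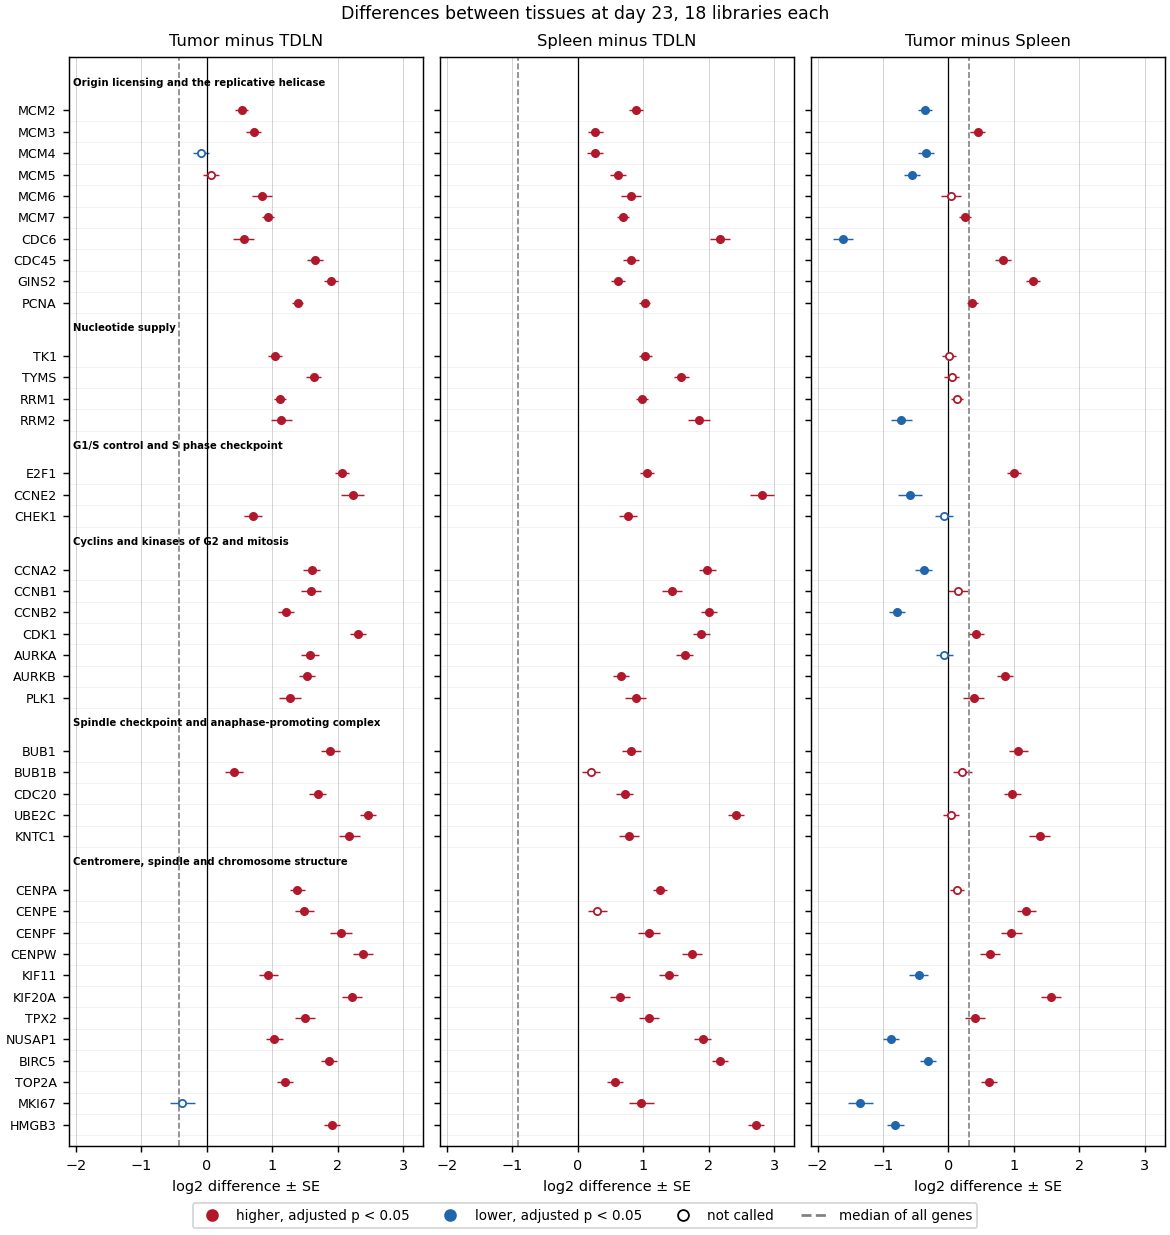
Difference of each gene between tissues at day 23, on the log2(TPM + 1) scale with SE, 18 libraries per tissue; filled points passed adjusted p under 0.05 and the dashed line is the median of all genes. Against nodes nearly all points lie right of 0 in tumors and in spleens, while tumor minus spleen splits into 18 higher and 13 lower.

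Red cell precursor markers moved with the spleen result. All 12 were higher in spleens than in nodes and the median difference was 6.64; KLF1 and RHAG, a transcription factor and a membrane protein of red cell precursors, were at the lowest value in every day 23 node. T cell markers went the other way, with a mean of 3.23 to 5.49 in spleens and 6.40 to 7.52 in day 23 nodes. Their part in the difference of the 41 genes between spleens and nodes was not tested.

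Tumors against spleens split the 41 genes: 18 were higher in tumors and 13 lower, with a median of 0.13, where 53.3% of all genes were higher and 24.8% lower with a median of 0.32. The split depended on how libraries were put on 1 scale. It was 10 higher and 23 lower after quantile normalization, and 24 and 5 with RNA integrity as a covariate. It was 6 and 25 after rescaling the listed TPM of each library to the same sum, which moves the median of all genes to -0.07. Shares of all genes in these alternative fits are not given here, so their counts show only how far the split moved. Only CDC6 had non-overlapping groups, with every tumor below every spleen, as 8.65% of all genes had.

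Higher in tumors were KIF20A (1.57 ± 0.15), KNTC1 (1.39 ± 0.16), GINS2 (1.29 ± 0.11), CENPE (1.19 ± 0.15), BUB1 (1.07 ± 0.14), E2F1 (1.00 ± 0.11), CDC20 (0.98 ± 0.13) and CENPF (0.96 ± 0.17), each a log2 difference with SE. KIF20A had 4.67, 6.09 and 6.63 in tumors and 3.53, 4.37 and 4.87 in spleens, which overlap at the edge. CDC20 and CENPF did not pass after rescaling the listed TPM, at 0.27 and 0.29. Lower in tumors were CDC6 (-1.61 ± 0.15), MKI67 (-1.35 ± 0.19), NUSAP1 (-0.88 ± 0.13), HMGB3 (-0.81 ± 0.12), CCNB2 (-0.79 ± 0.12), RRM2 (-0.72 ± 0.17), CCNE2 (-0.59 ± 0.18) and MCM5 (-0.55 ± 0.12). With RNA integrity as a covariate RRM2, CCNE2 and MCM5 did not pass, at -0.14, -0.07 and -0.12. Signs were unstable for TOP2A, at 0.62 ± 0.12 as deposited and -0.09 after rescaling, and for PCNA, at 0.36 ± 0.09 as deposited, -0.30 after quantile normalization and -0.35 after rescaling.

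CDC6 had 2.22, 3.37 and 3.83 in tumors and 3.98, 4.86 and 5.52 in spleens. It loads the MCM helicase, which GINS2 joins when an origin fires, and GINS2 was higher in tumors, at 0.60 after rescaling. Among the mitotic kinases AURKB, which works in the passenger complex, was higher in tumors by 0.86 ± 0.12, though at 0.16 and not called after rescaling, and AURKA was not called at -0.06 ± 0.13. Of the 4 nucleotide supply genes RRM2 was lower, as given above, and TK1, TYMS and RRM1 did not pass, at 0.01 ± 0.10, 0.05 ± 0.12 and 0.13 ± 0.09. All 12 red cell precursor markers were lower in tumors than in spleens, with a median of -6.67, and their part in these differences was not tested.

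A longer list of 104 other cell cycle genes, in 4 groups, gives the wider picture. Of 45 other mitotic genes, 43 were higher and 1 lower in tumors than in nodes, 40 and 2 in spleens than in nodes, and 30 and 6 in tumors than in spleens; ANLN, a cytokinesis scaffold, differed by 4.42 ± 0.16 between tumors and nodes. Of 32 other replication genes, 24 were higher and 2 lower in tumors than in nodes, 24 and 4 in spleens than in nodes, and 13 and 4 in tumors than in spleens. The shares of all genes for tumors against spleens are given above. The share called higher was above that of all genes in the mitotic list and below it in the replication list. Both lists had a smaller share called lower than all genes. Of 18 brakes of the cycle, 6 were higher and 11 lower in tumors than in nodes, where 27.7% of all genes were higher and 57.9% lower, and 4 were higher and 12 lower in spleens than in nodes, where the shares were 9.1% and 79.7%. CDKN1A, the p21 inhibitor of cyclin kinases, was higher in tumors than in nodes by 2.61 ± 0.11 and higher than in spleens by 4.62 ± 0.11, whereas CDKN2B, the p15 inhibitor, was lower in tumors than in nodes by -2.20 ± 0.07 and BTG2, an antiproliferative factor, by -4.32 ± 0.11. Among 9 G1 cyclins and kinases, CCND1, cyclin D1, was higher in tumors by 2.96 ± 0.14 against nodes and 4.73 ± 0.14 against spleens, and CCNE1, the other cyclin E, was higher in spleens than in nodes by 1.97 ± 0.12 (SE in each case).

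Spleens of mice with larger tumors had higher levels of these genes. The slope on log2 tumor volume passed for 35 of the 41 genes, all higher, and 0 lower, where 4.56% of all 11184 genes had a called positive slope, 35.2% a negative one and 39.7% either (limma). All 41 slopes were positive, with a median of 0.16 log2 units per doubling of tumor volume, against -0.09 for all genes. The 8 steepest were HMGB3 at 0.26 ± 0.06, CENPW at 0.25 ± 0.07, CCNE2 at 0.25 ± 0.08, BIRC5 at 0.22 ± 0.06, CCNB1, a mitotic cyclin, at 0.22 ± 0.06, TK1 at 0.21 ± 0.05, TYMS at 0.21 ± 0.06 and CDK1 at 0.20 ± 0.05 (SE, adjusted p = 0.0399 for each, limma). MKI67, TOP2A, CENPE, CENPF, MCM3 and MCM4 did not pass, with slopes of 0.08, 0.12, 0.09, 0.11, 0.10 and 0.10. All 4 nucleotide supply genes, all 3 genes of the G1/S group and all 7 mitotic cyclins and kinases passed.

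These calls sat close to the threshold and rested on single spleens. When 1 of 8 spleens was left out, 0 of the 41 passed. These were the spleens of TS/PD1/CYTO mice 58 and 59, PD1/CYTO mouse 38, CYTO mouse 18, PD1 mice 29 and 30, and Isotype mice 8 and 10. In each of these fits 0 of all genes passed either, although all 41 slopes stayed positive and their median lay between 0.136 and 0.174. Without the spleens of the 2 smallest tumors, PD1/CYTO mouse 40 and TS/PD1/CYTO mouse 58, 1 passed and 36 slopes were positive, with a median of 0.108. With arm as a further term, or after rescaling the listed TPM, 0 passed, with 41 positive slopes and medians of 0.234 and 0.223.

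In HMGB3 the spleens of these 2 smallest tumors, of 29.18 and 175.1 mm3, had 6.22 and 5.89. The spleens of the 2 largest, of 2198 and 1772 mm3, had 7.88 and 7.74. TS/PD1/CYTO mouse 60 stood apart, with a tumor of 320.9 mm3 and a level of 7.83. CCNB1 showed the same layout, with 5.21 and 4.93 at the smallest tumors, 6.91 and 6.45 at the largest, and 6.70 in TS/PD1/CYTO mouse 60.

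**Figure D3:**
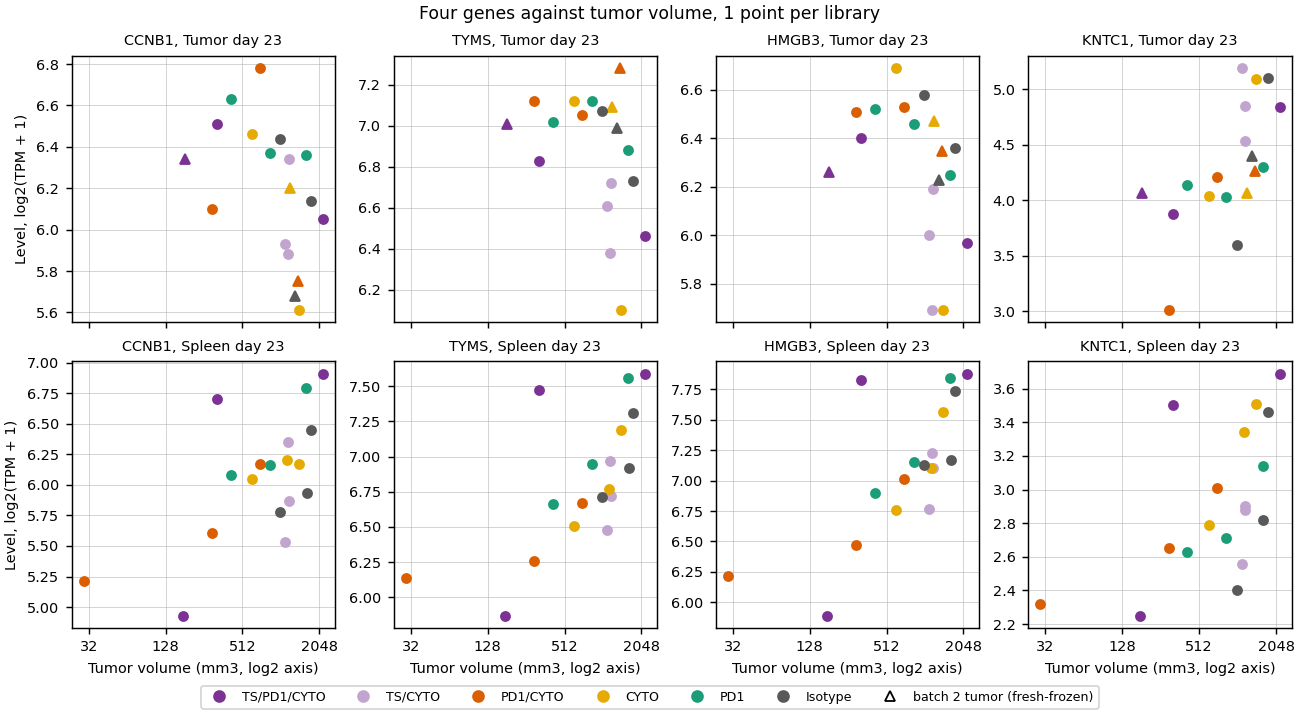
Levels of CCNB1, TYMS, HMGB3 and KNTC1 as log2(TPM + 1) against tumor volume on a log2 axis, 1 point per library, with tumors in the upper row and spleens in the lower row and arms by color. In spleens the lowest values lie at the smallest tumors, with TS/PD1/CYTO mouse 60 above the others of like volume; in tumors CCNB1, TYMS and HMGB3 tend to lie lower at large volumes and KNTC1 higher.

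The mean of the 41 genes in a spleen followed red cell precursor markers closely. Over 18 spleens r with the mean of the 12 erythroid markers was 0.978 (rho 0.957), and 0.972 without the 2 spleens farthest from the median marker level. With tumor volume r was 0.642 (rho 0.604), and 0.299 without the 2 farthest volumes. With the mean of 10 T cell markers r was -0.864 (rho -0.862), and -0.794 without the 2 farthest. T cell markers were not alone in this, as r was -0.823 with plasma cell, -0.779 with B cell and -0.72 with macrophage markers. It was -0.76 with the listed TPM, whereas granulocyte precursor markers went the other way at 0.361. These are descriptions over libraries that share composition and TPM scaling. The erythroid markers themselves rose with tumor volume, 9 of 12 passing with a median slope of 0.20. With their mean as a covariate, 0 of the 41 genes passed and the median slope on volume was 0.018, with 32 of 41 positive and E2F1 at -0.0045. A covariate with r = 0.978 to the members' mean leaves little variation to relate to volume, so this outcome was nearly fixed in advance. The part of red cell precursors in the slopes was not tested.

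**Figure D4:**
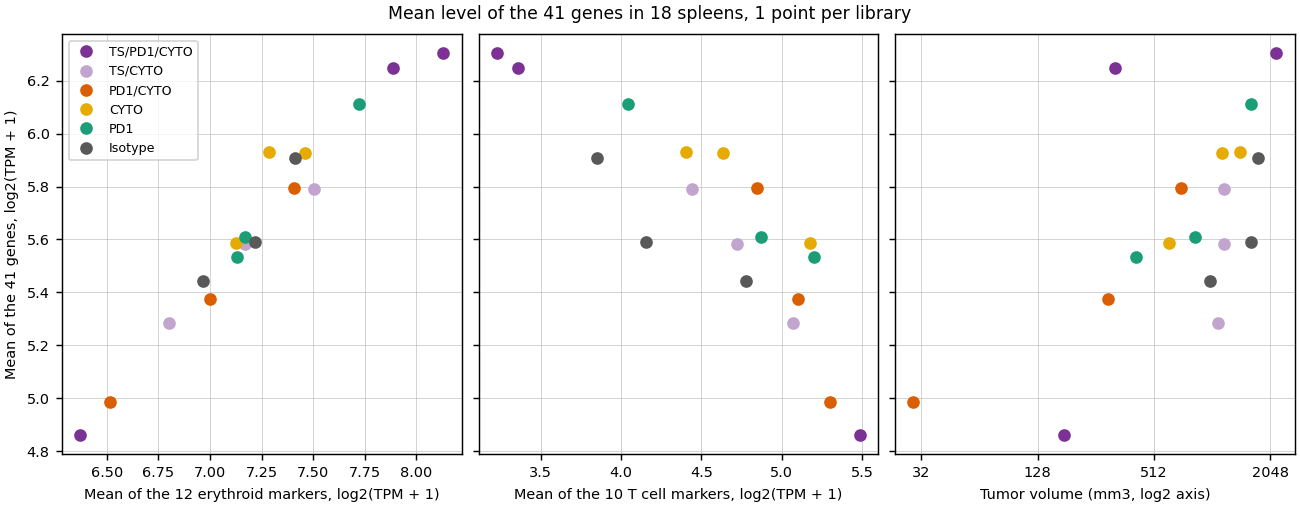
Mean level of the 41 genes in each of 18 spleens against the mean of 12 erythroid markers, the mean of 10 T cell markers and tumor volume (log2 axis), with arms by color. Points fall close to a line against the erythroid markers (r = 0.978), descend against the T cell markers and scatter more against volume (r = 0.642).

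Other cell cycle genes moved the same way in spleens. Of 45 other mitotic genes, 35 had a called positive slope on volume and 0 a negative one, and of 32 other replication genes 23 had one and 0 a negative one. GINS1, a further helicase subunit, had a slope of 0.23 ± 0.06. Brakes of the cycle were divided, with 4 higher and 10 lower of 18: CDKN1C, the p57 inhibitor, had a slope of -0.27 ± 0.04 and GADD45A, a stress response gene, 0.16 ± 0.05. CCNE1 rose with a slope of 0.23 ± 0.06 and CCND2, a D-type cyclin, fell with -0.24 ± 0.09 (SE). The adjusted p of the genes named here was 0.0399 to 0.0444 by limma.

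In tumors 36 of the 41 slopes on tumor volume were negative, with a median of -0.12, which equals that of all 10913 genes. A single gene passed, where 11% of all genes did, 0.275% higher and 10.7% lower. It was KNTC1, higher in larger tumors by 0.35 ± 0.10 per doubling (SE, adjusted p = 0.036, limma). KNTC1 had 3.01 in PD1/CYTO mouse 38, the lowest, a median of 4.24, and 5.19 in TS/CYTO mouse 49, the highest. It did not pass with RNA integrity as a covariate (0.30 ± 0.10, adjusted p = 0.0615, limma) or with arm as a further term (0.35 ± 0.12, adjusted p = 0.101, limma). Over the 18 tumors its level had r = -0.526 (rho -0.642) with the RNA integrity number, r = -0.334 without the 2 farthest values, and r = -0.519 (rho -0.648) in the 14 tumors of batch 3 alone, so that integrity moved with it. RRM2 had the steepest negative slope, -0.28 ± 0.11, and did not pass.

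The count in tumors changed with single libraries. It was 0 when the tumor of TS/PD1/CYTO mouse 59 or 60, TS/CYTO mouse 50, CYTO mouse 18 or 20, or Isotype mouse 10 was left out. It was 3 without CYTO mouse 12 or PD1 mouse 30, 4 without TS/PD1/CYTO mouse 52 and 19 without PD1/CYTO mouse 38, a small tumor of 294.4 mm3 with 3.71 for MKI67. In the 14 tumors of batch 3 alone, 2 passed, 1 higher and 1 lower. Shares of all genes in these refits are not given here. The counts show how far the result moved and are not a result about the members. Of the other cell cycle genes 2 passed in all tumors, both brakes: CDKN2A and BTG1 were lower in larger tumors, by -0.34 ± 0.09 and -0.20 ± 0.06.

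The 2 tissues were compared directly in a fit of 36 libraries with a slope for each. The slope was higher in spleens than in tumors for 8 of the 41 genes and lower for 0, where 2.15% of all 11967 genes were higher and 0.46% lower. The 8 were RRM2 (0.45 ± 0.12), HMGB3 (0.38 ± 0.10), CCNB1 (0.37 ± 0.10), CHEK1, the S phase checkpoint kinase (0.36 ± 0.10), AURKA (0.36 ± 0.10), TYMS (0.33 ± 0.09), CCNB2 (0.31 ± 0.09) and PCNA (0.27 ± 0.07), each a difference of slopes with SE. The median difference was 0.27, against 0.02 for all genes, and 38 of 41 were positive. The count was 17 after rescaling the listed TPM, 2 with RNA integrity as a covariate, 0 without the spleens of the 2 smallest tumors, and 0 to 21 when single libraries were left out. It was 0 without the spleen of TS/PD1/CYTO 58 or the tumor of TS/PD1/CYTO 59 or 60, 15 without the tumor of PD1 30 and 21 without the spleen of TS/PD1/CYTO 60. It was 1 to 5 without the tumor of TS/CYTO mouse 49 or 50, PD1/CYTO mouse 38, CYTO mouse 18 or 20, PD1 mouse 29 or Isotype mouse 10. The same held without the spleen of TS/PD1/CYTO mouse 59, TS/CYTO mouse 50, PD1/CYTO mouse 38, CYTO mouse 18, PD1 mouse 28 or 30, or Isotype mouse 9 or 10. Shares of all genes in these alternative fits are not given here, so their counts show only how far the result moved.

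In nodes no slope passed: 0 of 41 at day 23, with a median of 0.002, and 0 of 41 at day 16, where 0% of all genes passed as on day 23 (limma, 0 members at an unadjusted p under 0.05 on either day). At day 16 all 41 slopes were positive, with a median of 0.262. Without the 3 nodes that stand apart 1 of 41 was positive, the median was -0.298 and 1 passed as lower. PD1/CYTO mouse 22 had the largest tumor of the day 16 mice, 680.8 mm3.

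No treatment effect on any of the 41 genes passed. The PD1 effect (arms with PD1 minus their counterparts without), the CYTO effect (CYTO and PD1/CYTO minus Isotype and PD1) and the TS effect (TS/CYTO and TS/PD1/CYTO minus CYTO and PD1/CYTO) each gave 0 called members in tumors, spleens and nodes of both days by limma, as did a test for any difference among the 6 arms. Of all genes, 0% passed in tumors, spleens and day 16 nodes, and 0.0164%, 0.0656% and 0.00819% passed for PD1, CYTO and TS in day 23 nodes, with 0.0574% for any arm. For CYTO these were 0.0246% higher and 0.041% lower. At an unadjusted p under 0.05 the members numbered 1, 0 and 4 for PD1, CYTO and TS in tumors, 0, 2 and 0 in spleens, 1, 0 and 1 in day 23 nodes and 0, 0 and 1 in day 16 nodes. For these and the other unadjusted counts in the text, the share of all genes under that threshold is not given. Such counts are therefore not read as results about the members. With 3 mice per arm, such a count of 0 does not show that the arms were alike.

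The members closest to the threshold can still be read as values. In tumors MCM5 averaged 6.37 ± 0.05 in PD1 and 5.61 ± 0.70 in Isotype (SD, n = 3 each), and its PD1 effect was 0.47 ± 0.19 (SE, adjusted p = 0.666, limma). MKI67 in tumors averaged 5.67 ± 0.19 in PD1, 4.38 ± 1.36 in PD1/CYTO and 4.41 ± 1.11 in Isotype (SD, n = 3 each), so that SDs within arms were near the gaps between them. Isotype, CYTO, PD1/CYTO and TS/PD1/CYTO each held a fresh-frozen tumor of batch 2, whereas PD1 and TS/CYTO held none. The arm means and SDs given here for tumors therefore carry batch, while the effects were fitted with batch. GINS2 in tumors averaged 5.56 ± 0.13 in TS/PD1/CYTO and 6.22 ± 0.38 in PD1/CYTO, and 5.46 ± 0.20 in TS/CYTO and 5.83 ± 0.53 in CYTO (SD, n = 3 each), with a TS effect of -0.47 ± 0.17 (SE, adjusted p = 0.999, limma). TOP2A in tumors went the other way, at 7.58 ± 0.02 in TS/PD1/CYTO and 6.92 ± 0.64 in PD1/CYTO (SD, n = 3 each), with a TS effect of 0.43 ± 0.17 (SE, adjusted p = 0.999, limma).

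In spleens CCNE2 averaged 4.64 ± 0.37 in CYTO and 5.21 ± 0.29 in Isotype (SD, n = 3 each), with a CYTO effect of -0.86 ± 0.34 (SE, adjusted p = 0.219, limma). CENPE had the opposite sign, 0.43 ± 0.19. In day 23 nodes TK1 averaged 5.73 ± 0.17 in PD1 and 6.09 ± 0.15 in Isotype (SD, n = 3 each), with a PD1 effect of -0.21 ± 0.07 (SE, adjusted p = 0.176, limma) and a TS effect of -0.23 ± 0.09. TK1 was also the gene that followed the others least in these nodes, with r = 0.458.

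PD1/CYTO against Isotype in spleens was the only treatment comparison reported here between single arms. It had more calls over all genes than the averaged effects and the tests for any arm. Of all genes 25.5% passed, 25.4% higher and 0.107% lower, with a median of 0.54. Of the 41, 0 passed (limma, 1 at an unadjusted p under 0.05), 9 were positive and the median was -0.26. Over all genes 1 passed after quantile normalization, 1 after rescaling the listed TPM, and 0 with RNA integrity or tumor volume as a covariate. The median of the 41 was -0.58, -0.52, -0.73 and 0.47 in those 4 fits. CENPW averaged 2.99 ± 0.17 in PD1/CYTO and 3.97 ± 0.35 in Isotype (SD, n = 3 each), a difference of -0.98 ± 0.46 (SE, adjusted p = 0.0929, limma). BIRC5 differed by -0.71 ± 0.38 and HMGB3 by -0.78 ± 0.43. The positive ones included MKI67, at 6.38 ± 0.77 in PD1/CYTO and 5.79 ± 0.30 in Isotype (SD, n = 3 each). Among the other cell cycle genes 4 passed, all higher: CCND2 (1.34 ± 0.45) and CDK6, its kinase (0.99 ± 0.29), the growth factor response gene MYC (0.58 ± 0.17), and POLD1, a replicative polymerase (0.52 ± 0.15). Erythroid markers had a median of -0.27 in this comparison, with 3 of 12 positive. With their mean as a covariate 13 of the 41 passed, 2 higher and 11 lower, where 51.3% of all genes were higher and 1.27% lower. Without TS/PD1/CYTO mouse 58, a spleen of neither arm that enters only through the shared spread, 8 passed, all lower, where 56.9% of all genes were higher and 1.5% lower. Leaving out that spleen also gave 5 called members for TS, all higher, where 1.29% of all genes were higher and 23.7% lower. For any arm, a test with no direction, it gave 14 of the 41, where 33.2% of all genes passed.

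Between nodes of day 23 and of day 16, 0 of 41 passed, as did 0% of all genes, and the median was -0.06 (limma, 1 member at an unadjusted p under 0.05). That gene was HMGB3, at 4.37 ± 0.19 at day 23 and 4.67 ± 0.52 at day 16 (SD, n = 18 each). Its day 16 mean includes 6.57 in PD1/CYTO mouse 22. Without the 3 nodes that stand apart, 0 of the 41 differences were positive, the median was -0.20 and 1 passed as lower.

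Those 3 libraries set the range of every gene at day 16. In PD1/CYTO mouse 22 all 41 genes lay above all of the other 15 nodes, as did 34.8% of all genes tested, while 36.7% lay below: CCNB1 had 7.02 there and 4.13 to 5.35 in the 15, MKI67 6.39 against 4.73 to 5.99, and E2F1 5.40 against 2.57 to 3.26. Its 7 B cell markers averaged 0.80 and its 5 lymph node markers 0.95, with macrophage markers at 6.67. In TS/PD1/CYTO mouse 34, 39 of the 41 lay below all of the 15 and 0 above, against 54.8% and 24.6% of all genes. In PD1 mouse 16, 37 lay below and 1 above, against 48% and 31.4% of all genes. TS/PD1/CYTO mouse 34 had CDC6, CHEK1 and CENPW at the lowest value, 0.01, against 2.16, 2.25 and 1.59 at the least in the 15. HMGB3 was the member above all 15 in PD1 mouse 16, at 4.97 against 4.20 to 4.87. The integrity number was 8.2 in PD1/CYTO mouse 22 and 5.1 in PD1 mouse 16, and TS/PD1/CYTO mouse 34 has none.

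**Figure D5:**
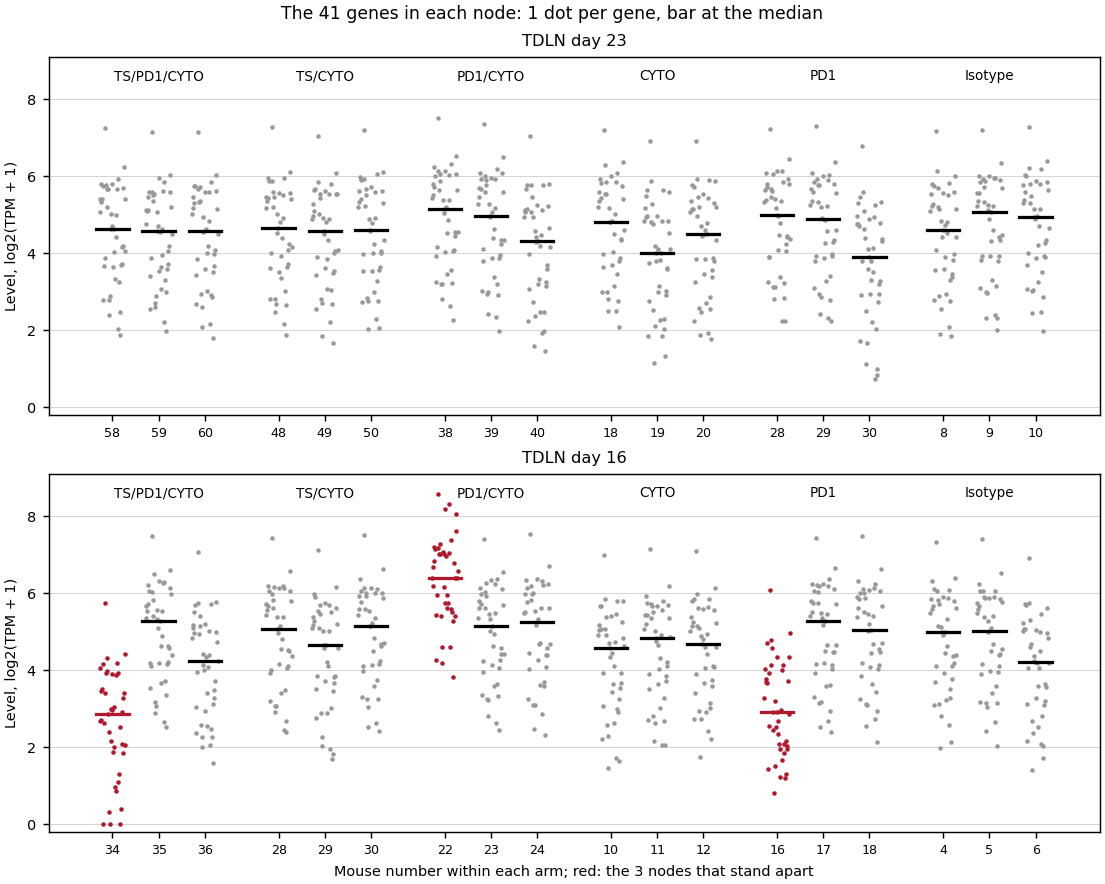
Levels of the 41 genes in each node as log2(TPM + 1), 1 dot per gene and a bar at the median, by arm and mouse number, day 23 above and day 16 below. The 3 red libraries stand apart at day 16, PD1/CYTO mouse 22 above and TS/PD1/CYTO mouse 34 and PD1 mouse 16 below the other 15.

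Arm values at day 16 changed when these nodes were left out. For CYTO all 41 effects were positive, with a median of 0.515, and without the 3 nodes 8 were, with a median of -0.041. For TS 0 of 41 were positive, with a median of -0.583, and without the 3 nodes 10 were, with a median of -0.058. For PD1 the median was -0.031 with all nodes and 0.232 without the 3, when 40 of 41 were positive, with 0 called in each case. CENPF had the smallest p for TS, at 2.71 ± 0.58 in TS/PD1/CYTO and 4.15 ± 1.20 in PD1/CYTO (SD, n = 3 each), an effect of -0.89 ± 0.40.

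At day 23 the 3 lowest means of the 41 genes belonged to PD1 mouse 30, CYTO mouse 19 and PD1/CYTO mouse 40, at 3.72, 3.91 and 4.12. Over these 18 nodes the mean of the 41 had r = 0.730 (rho 0.657) with germinal center B cell markers, 0.645 (rho 0.490) with plasma cell markers, -0.647 (rho -0.542) with erythroid markers, 0.570 (rho 0.659) with the RNA integrity number and 0.017 (rho -0.181) with tumor volume. With the germinal center markers r was 0.744 (rho 0.740) in tumors, -0.748 (rho -0.713) in spleens and 0.327 (rho 0.259) in day 16 nodes, or 0.211 (rho 0.146) without the 3 that stand apart.

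In tumors the mean of the 41 also had r = 0.696 (rho 0.618) with T cell markers, 0.586 (rho 0.711) with plasma cell markers and 0.534 (rho 0.515) with macrophage markers. With exocrine pancreas markers r was -0.582 (rho -0.496), though their means in tumors were only 0.295 to 0.577, near the lowest value. With the listed TPM r was 0.514 (rho 0.564). The mean of the 41 had r = 0.457 (rho 0.475) with the integrity number and -0.317 (rho -0.346) with volume. In the 14 tumors of batch 3 alone r was 0.656 (rho 0.635) with germinal center markers, 0.589 (rho 0.613) with T cell markers, 0.650 (rho 0.628) with the integrity number and -0.242 (rho -0.305) with volume. The part of these measures in the members' levels was not tested.

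Positions are those of GENCODE M21 on GRCm38. MKI67 lies on chromosome 7 at 135689784-135716361 (minus strand), TOP2A on chromosome 11 at 98992943-99024189 (minus), PCNA on chromosome 2 at 132249162-132253314 (minus), KNTC1 on chromosome 5 at 123749716-123821593 (plus), CCNE2 on chromosome 4 at 11191351-11204779 (plus) and CENPW on chromosome 10 at 30194569-30200560 (minus), and the values count reads over each gene's exons. CDC6 and TOP2A are near neighbors on chromosome 11, with CDC6 at 98907801-98923940. For 5 of the 41, CCNB1, CCNB2, HMGB3, PCNA and TYMS, that annotation names pseudogenes, with which reads could be shared, and their values are uncertain to that extent.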

How the data were processed

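The authors deposited 1 matrix of log2(TPM + 1) values for 16835 genes and 72 libraries, rounded to 2 decimals, with 0.01 as its lowest value. Per the labels' protocols, the libraries were paired-end, stranded and polyA-enriched. Per the submitters' processing notes, bcl2fastq 2.20, STAR and RSEM 1.3.0 were used with build mm10. The annotation release is not given in the sources used here, and TPM keeps no depth.

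Groups came from the labels (24 groups of 3 mice). Genes above 0.01 in at least 3 fitted libraries were tested with limma 3.58.1 (R 4.3.3, moderated with trend and robust options) on the deposited scale, with Benjamini-Hochberg adjustment over all genes tested and a threshold of 0.05. Fits of tumors alone carried batch, whereas the differences in level between tissues were not adjusted for it. Slopes used log2 tumor volume. Named were up to 8 rises and 8 falls per comparison among members past the threshold, otherwise members of smallest p, and a fixed panel. The 41 members and all lists were chosen with earlier results of these data known. P-values measure the spread between mice. At day 23, 18 mice gave both spleen and node and 14 of them a tumor too, so mouse numbers in the labels pair the libraries. Paired deviations correlated little (median r of -0.018 for spleen and node). Scripts were tested on simulated data. Alternatives were 2 scalings, 2 filters, a pseudocount of 0.1, RNA integrity, the mouse block, arm, the erythroid mean, and leaving out each library.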

Additional observations from a re-analysis of the deposited data

Results flagged for a closer look

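The slope on tumor volume differed between spleens and tumors by a test of the difference itself for 8 of the 41 genes (limma, 36 libraries, adjusted over all 11967 genes tested). In each of the 8 the slope was positive in spleens and negative in tumors when fitted alone. Differences of slopes, in log2 units per doubling of tumor volume, were 0.454 for RRM2, 0.3783 for HMGB3, 0.3728 for CCNB1, 0.3648 for CHEK1, 0.364 for AURKA, 0.3342 for TYMS, 0.3114 for CCNB2 and 0.2656 for PCNA, with adjusted p of 0.0272 (PCNA) to 0.0478 (TYMS). RRM2, fitted alone, had slopes of 0.184 in spleens and -0.277 in tumors, and PCNA 0.161 and -0.110. None of the 8 tumor slopes passed alone. No gene of the 8 passed without the spleens of the 2 smallest tumors.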

How the results depend on the processing

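Of 26 comparisons 20 had a reported count of 0 called members, and 530 of their 536 alternative counts stayed at 0. The other 6 had a count above 0, and 234 of their 282 alternative counts stayed within 1.5 times it. Spleen slopes on volume fell to 0 called after rescaling the listed TPM, with arm as a term and with the erythroid mean as a covariate, and to 1 without the 2 spleens of the smallest tumors (chosen after seeing the data). Tumor slopes gave 0 with RNA integrity, 0 with arm and 2 in batch 3 alone, against 1. Tumor minus TDLN gave 34 within batch 2 (chosen after seeing the data), against 38, in a contrast of fresh-frozen tumors with RNAlater nodes. The slope difference gave 17 after rescaling, 2 with RNA integrity and 0 without those 2 spleens, against 8. PD1/CYTO minus Isotype in spleens gave 13 with the erythroid mean, against 0. Without the 3 day 16 nodes that stand apart (also chosen after seeing the data), node slopes at day 16 gave 1 and day 23 minus day 16 gave 1, against 0 each. Leaving out single libraries gave 0 to 5 for TS, 0 to 14 for any arm and 0 to 8 for PD1/CYTO minus Isotype in spleens, 0 to 19 for tumor slopes, 0 to 38 for spleen slopes and 0 to 21 for the slope difference. For tumor slopes and the slope difference, the shares of all genes in these refits are not given here. Signs turned for E2F1 in the spleen slope (-0.0045, erythroid mean), TOP2A in tumor minus spleen (-0.0875, rescaled) and PCNA there (-0.3007, quantile; -0.3488, rescaled). With mouse as a replicate block the called members numbered 38, 40 and 31 for tumor minus TDLN, spleen minus TDLN and tumor minus spleen, and 9 for the slope difference, and the block changed no other call by over 1.5 times. The causes were not tested. Depth limits nothing that can be stated, since TPM does not keep it.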
